A study of Macaca mulatta with 12 samples.

Results

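The collagen genes of the rhesus macaque liver are described here across 12 biopsy libraries. Members were every gene identifier of the deposited transcript count table whose symbol consists of COL, a number, A and a second number. This rule used no measured value, and it found 41 of the 23993 genes in the table, with 116 of its 40611 transcripts. They comprise 10 fibrillar collagens, 8 basement membrane collagens and 23 others. The others are 10 fibril-associated collagens (FACIT), 5 type VI collagens, 4 transmembrane collagens and 4 that form networks or fit none of these classes. The name table holds 43 macaque collagen identifiers, and COL24A1, COL7A1 and COL10A1 were matched to no row and are not analysed here. Male rhesus monkeys of about 4.6 years gave a liver biopsy at baseline, before any induction, and a second biopsy post-induction. The induction phase lasted 90 days, with ethanol intake fixed at 0.5, 1 and 1.5 g/kg/day for 30 days each, and was the same for all animals. Over 12 months of free access that followed, 3 animals settled at 1.5 g/kg/day and were classed as light drinkers (LD), and 3 reached 4.0 g/kg/day and were classed as very heavy drinkers (VHD). There are therefore 4 groups of 3 libraries, namely LD baseline, LD post-induction, VHD baseline and VHD post-induction, and all biopsies were taken before the free access that defined LD and VHD. No genetic modification is named for any group, and animals that went through the same period without ethanol are not analysed here.

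Collagens are proteins whose chains wind around each other in threes, and most of them are secreted. Fibrillar collagens I, III and V form the banded fibres of connective tissue. Types IV, XV and XVIII form or decorate basement membranes and the perisinusoidal space, and type VI forms beaded filaments that link fibres to cells. In the liver, stellate cells and portal fibroblasts are the main source of fibrillar collagen, and its accumulation is the basis of fibrosis, a known outcome of long alcohol exposure. Endothelial cells and hepatocytes also make basement membrane collagens, and hepatocytes are a known source of collagen XVIII. Bulk tissue cannot tell fewer cells of a type from less RNA per cell.

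Library totals ran from 5970033 to 25060718 estimated counts, and 2053 to 14182 of them fell on collagen genes. Levels are given below as CPM, counts scaled to a common library size with TMM factors, which correct for differences in library composition, and are not divided by gene length, so levels of different genes are not ranked. Of the 41 genes 39 passed the filter on low counts, which left out COL23A1 and COL26A1. All libraries had high hepatocyte markers, with 9 of them summing to between 135055 and 254490 CPM, and ALB averaging 127825 CPM. The 11 stellate cell markers in the table summed to between 86.9 and 135 CPM, and none of them was at 0 in every library. Libraries of VHD animal 3 at baseline and VHD animal 2 post-induction stood apart from the rest on the second principal component of all genes, which held 20.6% of the variance. These same libraries had the fewest miRNA counts per 1000 transcript counts, at 9.39 and 11.9, against 16.6 to 43.5 in the others. Values without them are given where a result below moved with them. P-values treat the baseline and post-induction libraries of 1 animal as independent samples.

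No collagen gene passed the test in any comparison. In all, 6 contrasts were fitted with edgeR's quasi-likelihood F test, with Benjamini-Hochberg adjustment over all 18373 genes tested, and called at an adjusted p under 0.05. The study asked whether LD and VHD livers differ before the induction, and how each responds to it. Called collagen genes numbered 0 of 39 for VHD against LD at baseline, where 0.00544% of all genes were called, and 0 of 39 for VHD against LD post-induction, where the share of all genes was 0.0%. They numbered 0 of 39 for the response in LD, with 0.0% of all genes, and 0 of 39 for the response in VHD, again with 0.0%. In the mean response of LD and VHD 0 of 39 were called, against 0.267% of all genes. For the difference of the responses, VHD minus LD, the count was 0 of 39, against 0.0%. With these shares of all genes called, 0 collagen genes is near the background. Unadjusted p-values under 0.05 in edgeR numbered 0, 2, 0, 1, 0 and 0 in the same order, where the shares of all genes were 1.86%, 2.44%, 5.7%, 3.44%, 7.91% and 1.3%. DESeq2 also called 0 collagen genes in each comparison, while it called 0.00544%, 0.00544%, 0.294%, 0.348%, 1.55% and 0.00544% of all genes. Its unadjusted p-values under 0.05 numbered 0, 3, 1, 1, 0 and 1 among the collagen genes, with shares of all genes of 2.12%, 2.91%, 6.85%, 4.23%, 9.02% and 1.64%.

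Post-induction levels of most collagen genes lay somewhat above baseline. For the mean response 33 of 39 log2 fold changes were above 0, with a median of 0.23, while 57.4% of all genes were above 0, with a median of 0.07. In VHD 34 of 39 were above 0 (median 0.28), against 52.4% of all genes (median 0.03). In LD 28 of 39 were above 0 (median 0.18), against 56.4% of all genes (median 0.08). These are descriptions of the list, and the members share libraries and animals. Without the 2 libraries that stood apart, the medians over the same 39 genes were 0.37 for the mean response (31 above 0), 0.45 in VHD (32 above 0) and 0.18 in LD (27 above 0). The medians also moved with single libraries. That of the LD response was 0.07 without LD animal 1 at baseline and 0.35 without LD animal 3 at baseline, that of the mean response was 0.14 and 0.36 without the same libraries, and that of the VHD response was 0.18 without VHD animal 1 at baseline. By class, the mean response had a median of 0.39 in the fibrillar collagens, with 8 of 10 above 0, of 0.15 in the basement membrane collagens, with 7 of 8 above 0, and of 0.15 in the others, with 18 of 21 above 0. The 5 type VI genes were all above 0 (median 0.44), and 3 of the 5 were without the 2 libraries that stood apart (median 0.22). None of the 39 genes was higher post-induction in 6 of 6 animals, as 2.67% of all genes were, and none was lower in 6 of 6, as 3.74% of all genes were. In 0 of 39 did the 3 LD animals all go one way and the 3 VHD animals the other, as in 1.02% of all genes.

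**Figure D1:**
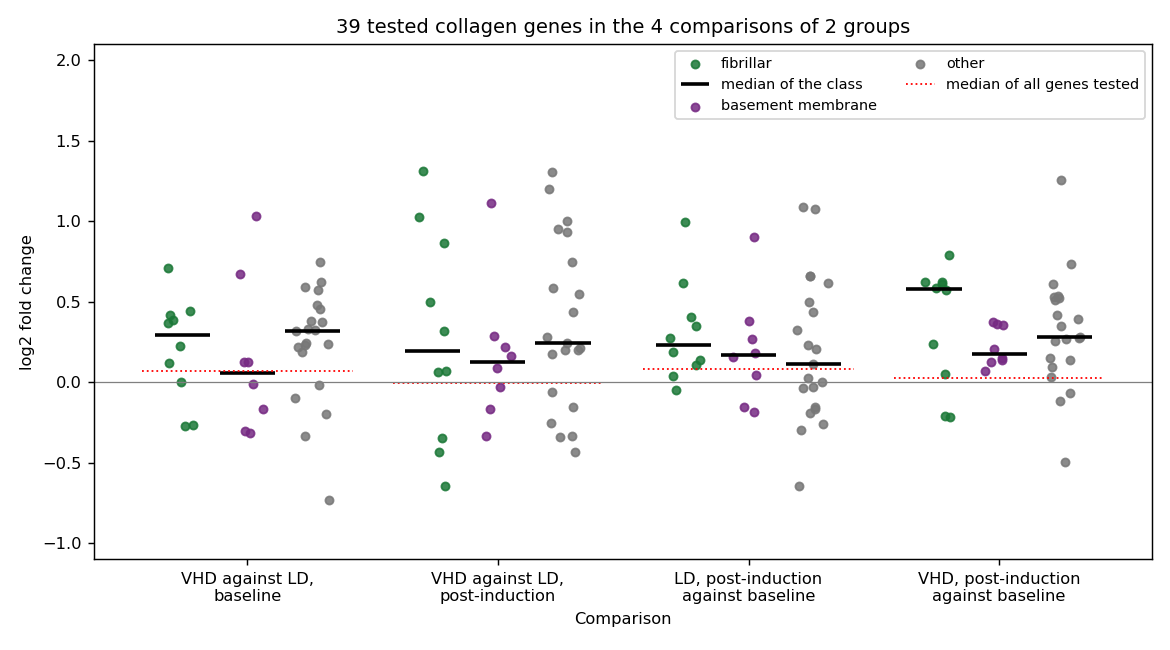
Log2 fold changes (vertical axis) of the 39 tested collagen genes in the 4 comparisons of 2 groups (horizontal axis), coloured by class; each point is 1 gene, black bars are class medians and the dotted line is the median of all genes tested. Most points lie above 0 in the VHD response (34 of 39), and in none of the comparisons was a gene called.

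VHD against LD gave medians of 0.24 at baseline, against 0.07 in all genes, and of 0.22 post-induction, against -0.01 in all genes, with 27 of 39 genes above 0 at each time, while 56.6% and 49.6% of all genes were. The baseline value rested on VHD animal 3, whose baseline library stood apart. Without that library the baseline median over the same 39 genes was -0.08, with 17 above 0, against a median of -0.01 in all genes. Without both libraries that stood apart it was -0.04, with 18 above 0. Post-induction the median was 0.20 without both, with 21 above 0, while it was 0.04 without VHD animal 3 post-induction and 0.09 without LD animal 1 post-induction. Over the libraries left out in turn it ran up to 0.39 at baseline, without VHD animal 1, and up to 0.35 post-induction, without LD animal 2 or VHD animal 1. The difference of the responses had a median of 0.08, with 22 of 39 above 0, against 46.2% of all genes (median -0.05). It was -0.03, -0.02 and -0.05 without LD animal 3 at baseline, LD animal 1 post-induction and VHD animal 1 at baseline in turn. Summed over the 41 genes, the level was 355, 396 and 417 CPM in LD at baseline and 484, 344 and 458 CPM post-induction. In VHD it was 423, 357 and 525 CPM at baseline and 588, 564 and 457 CPM post-induction. The groups overlapped in each of the 4 comparisons: the lowest VHD post-induction library, that of animal 3, lay below the highest LD post-induction and VHD baseline libraries. Without COL5A2 and COL11A1, left out after their values were seen, the VHD post-induction sums were 407, 506 and 380 CPM and those of LD post-induction 449, 316 and 381 CPM. VHD post-induction held the highest library of 23 of the 39 genes (59.0%), and that group held the highest library of 30.7% of all genes. LD baseline held the highest library of 1 collagen gene, against 13.01% of all genes. Among the 10 libraries left without those that stood apart, VHD post-induction held the highest of 17 of the 39 genes (43.6%), against 19.9% of all genes.

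**Figure D2:**
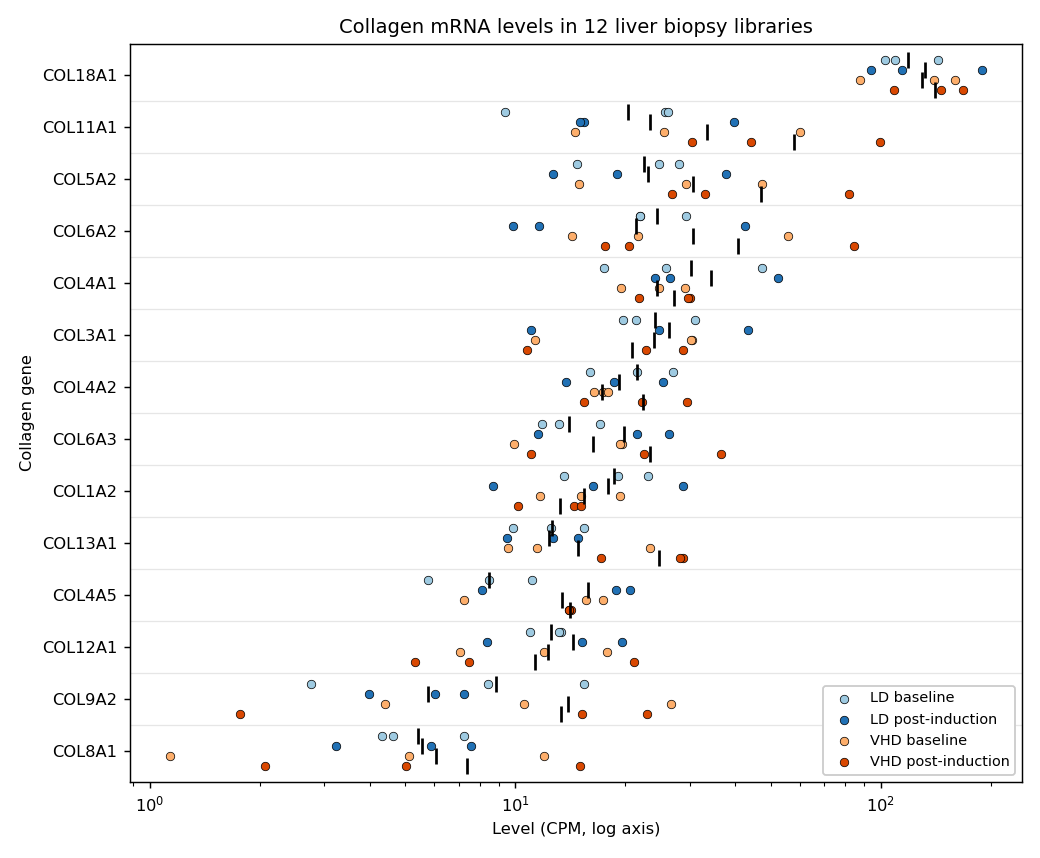
Level (CPM, log axis) of the 14 tested collagen genes with the highest mean CPM; points are single libraries coloured by group, with 3 in each, and black ticks are group means. Groups overlap for every gene shown except COL13A1 post-induction, where the 3 VHD libraries (17.2 to 28.7 CPM) lie above the 3 LD libraries (9.50 to 14.9 CPM).

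Among the fibrillar collagens, the genes of the main fibre-forming types I and III gave responses on both sides of 0. COL1A2, the second chain of type I collagen (chromosome 3, 119752300 to 119788039, Mmul_8.0.1), stood at 23.01, 13.6 and 19.1 CPM in LD at baseline and 28.7, 8.66 and 16.3 CPM post-induction. In VHD it stood at 19.4, 15.1 and 11.7 CPM and 14.5, 10.2 and 15.1 CPM. Of the 6 animals 2 were higher post-induction, LD animal 1 and VHD animal 3, and all groups overlapped. The mean response was -0.13 ± 0.29 (log2 ± SE), with a 95% interval of the fold from 0.593 to 1.405. COL3A1, which forms type III collagen (chromosome 12, 76381451 to 76418767), stood at 30.97, 19.7 and 21.4 CPM and then 43.3, 11.1 and 24.7 CPM in LD. In VHD the values were 30.4, 30.3 and 11.3 CPM and then 28.8, 10.8 and 22.8 CPM. The highest and the lowest post-induction libraries came from LD animal 1 and VHD animal 2, so the spread within each group exceeded the gap between group means. Its mean response was -0.04 ± 0.37, with a fold interval of 0.565 to 1.69. COL1A1, the first chain of type I (chromosome 16, 39351731 to 39368128), was named after its values were seen. It stood at 4.33, 1.77 and 3.38 CPM in LD at baseline, 7.52, 1.36 and 2.3003 CPM in LD post-induction, 2.38, 2.71 and 2.63 CPM in VHD at baseline and 3.17, 4.76 and 3.79 CPM in VHD post-induction. The VHD post-induction libraries all lay above the VHD baseline libraries, by a narrow gap. COL1A1 and COL9A1 were the collagen genes with no overlap in that direction, 2 of 39, where 2.8% of all genes had none, and 0 were lower without overlap, against 3.89%; the VHD response of COL1A1 was 0.61 ± 0.55 (unadjusted p = 0.290, adjusted p = 1.000 by edgeR).

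COL11A1 and COL5A2 had the widest spread between libraries of the fibrillar genes above 10 CPM on average. Type V and type XI chains co-assemble with types I and II and limit the width of fibres. COL11A1 (chromosome 1, 103733591 to 103950112) stood at 9.34, 25.7 and 26.1 CPM in LD at baseline, and at 15.4, 15.1 and 39.6 CPM post-induction. In VHD it stood at 25.5, 14.6 and 60.1 CPM at baseline and 99.2, 30.4 and 43.99 CPM post-induction. VHD animal 1 post-induction was the highest library, and the lowest VHD value post-induction lay below the highest LD value. The VHD against LD difference post-induction was 1.31 ± 0.62 (unadjusted p = 0.053, adjusted p = 0.999, edgeR), and 0.67 without VHD animal 1. COL5A2 (chromosome 12, 76434130 to 76591422) stood at 14.7, 24.7 and 27.95 CPM and then 18.9, 12.7 and 37.8 CPM in LD, and at 29.3, 14.96 and 47.3 CPM and then 81.5, 26.8 and 32.98 CPM in VHD. The same library was the highest, and the groups overlapped. Its post-induction difference was 1.03 ± 0.54, and 0.37 without that library. Without the 2 libraries that stood apart, the VHD responses of COL11A1 and COL5A2 were 1.84 and 1.37, against 0.79 ± 0.61 and 0.62 ± 0.53 with them.

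COL5A3, a chain of type V with a restricted tissue range, was at 1.903, 1.71 and 1.08 CPM in LD at baseline and 2.07, 5.04 and 2.11 CPM post-induction, without overlap. It was at 1.55, 2.22 and 1.26 CPM and 2.07, 1.59 and 2.26 CPM in VHD, which overlapped. COL5A3 and the transmembrane gene COL25A1 were the collagen genes above baseline without overlap in LD, 2 of 39, where 5.5% of all genes were, and 0 were below it without overlap, against 6.17%. The LD response of COL5A3 was 0.99 ± 0.47 (unadjusted p = 0.054, adjusted p = 0.856, edgeR) and 0.44 without LD animal 2 post-induction, its highest library. That of COL25A1 was 1.08 ± 0.60 (unadjusted p = 0.094). The other 5 fibrillar genes tested, COL1A1 included, ranged from 0.369 to 12.2 CPM over the 12 libraries.

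**Figure D3:**
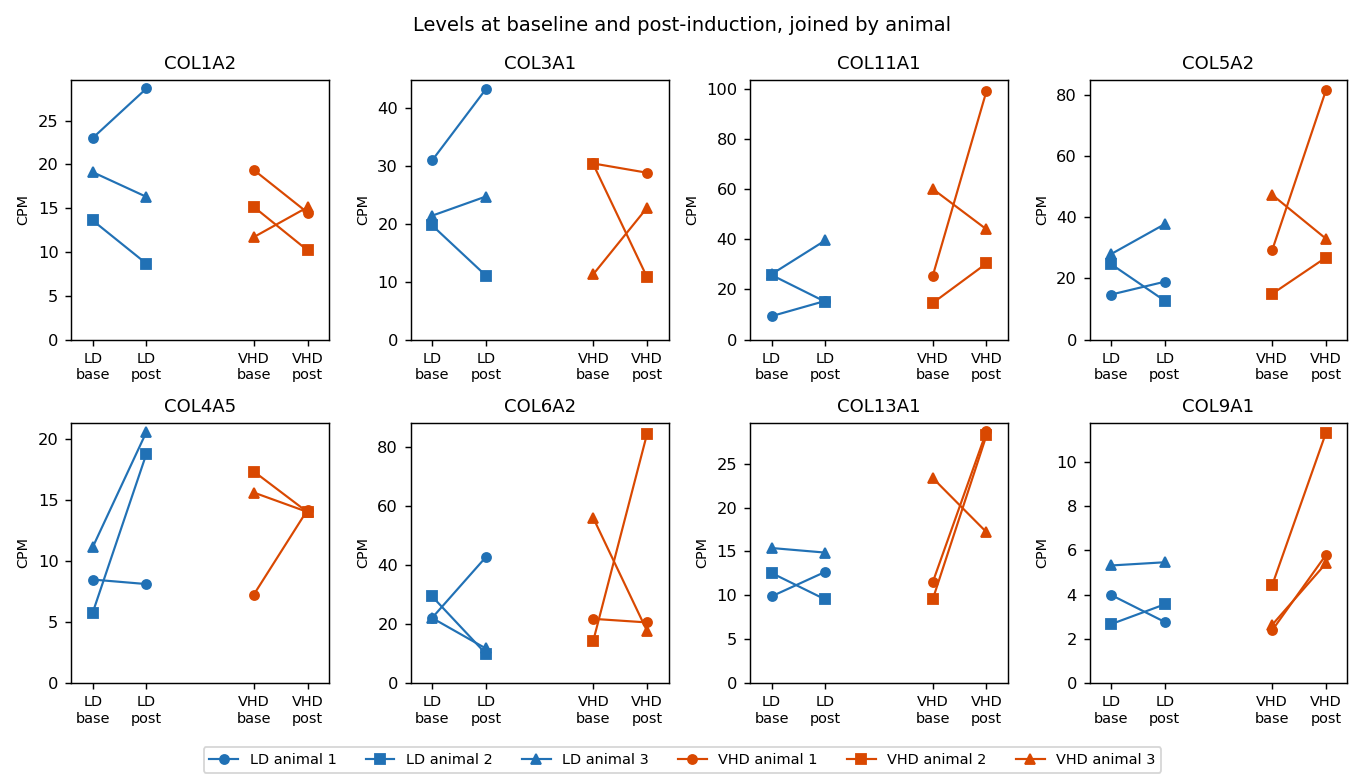
Level (CPM, linear axes from 0) at baseline and post-induction of 8 collagen genes, 1 panel each, with a line for each animal (LD in blue, VHD in orange, symbols for animals 1 to 3). COL1A2 and COL3A1 have lines in both directions in each class, COL11A1 and COL5A2 are led by VHD animal 1 post-induction (99.2 and 81.5 CPM), and COL9A1 is higher post-induction in all 3 VHD animals.

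No basement membrane collagen was called, and 7 of the 8 mean responses were above 0. COL4A1 and COL4A2 encode the chains of the common type IV network and start next to each other on chromosome 17, with 90 bases between their ends. COL4A1 stood at 25.8, 17.5 and 47.1 CPM in LD at baseline, 26.5, 24.1 and 52.1 CPM in LD post-induction, 19.5, 29.2 and 24.7 CPM in VHD at baseline and 30.1, 29.7 and 21.7 CPM in VHD post-induction. Both libraries of LD animal 3 were above all others. Within VHD, animal 1 was the lowest at baseline and the highest post-induction. COL4A2 stood at 21.5, 16.003 and 26.9 CPM, 25.4, 13.8 and 18.6 CPM, 17.4, 16.4 and 17.96 CPM and 22.2, 29.5 and 15.4 CPM in the same order, with overlap in every comparison. The mean responses were 0.17 ± 0.28 and 0.11 ± 0.24, with fold intervals of 0.734 to 1.72 and 0.758 to 1.54.

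COL4A5 encodes a chain of a more specialised type IV network and lies on chromosome X. It was at 8.48, 5.76 and 11.1 CPM in LD at baseline and 8.11, 18.8 and 20.6 CPM post-induction, where animals 2 and 3 were higher than at baseline and animal 1 was not. In VHD the values were 7.25, 17.4 and 15.6 CPM and 14.2, 14.02 and 14.03 CPM, and the post-induction libraries lay within the baseline range. The LD response was 0.90 ± 0.42 (unadjusted p = 0.051, adjusted p = 0.856, edgeR), and the difference of the responses was -0.84 ± 0.59 with an interval of -2.11 to 0.44. Without LD animal 1 post-induction the LD response was 1.22 and its adjusted p 0.209, which was the lowest adjusted p of any named collagen gene under any setting tried. COL4A3, another specialised chain, was at 1.04, 1.27 and 1.44 CPM in LD and 1.97, 1.48 and 4.22 CPM in VHD at baseline, without overlap. Post-induction it was at 1.64, 1.75 and 1.15 CPM and 1.66, 5.91 and 2.21 CPM, with overlap. The highest value at each time was the VHD library that stood apart. The differences were 1.03 ± 0.55 and 1.11 ± 0.54, and 0.38 and 0.36 without those libraries. At baseline COL4A3 and COL6A1 were the genes higher in VHD without overlap, 2 of 39 against 4.13% of all genes.

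COL18A1, whose C-terminal part is released as endostatin (chromosome 3, 1226499 to 1331981), took 23.8% to 39.1% of all collagen CPM. It stood at 109.5, 144 and 103 CPM in LD at baseline and 189, 94.01 and 114 CPM post-induction. The VHD libraries held 159.96, 87.9 and 140.1 CPM and then 146, 167 and 109 CPM. All groups overlapped, and the mean response was 0.14 ± 0.25 with a fold interval of 0.7597 to 1.5997. Its intervals lay between a halving and a doubling in each of the 4 comparisons of 2 groups, as those of no other collagen gene did. From 79.6% to 96.5% of its counts were assigned to the transcript with the shortest span of the 4 in the table. COL15A1, COL4A4 and COL4A6 ranged from 0.865 to 4.98 CPM, and none was called.

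No type VI collagen gene was called. Summed over the 5 genes, the baseline level was 41.4, 48.5 and 46.4 CPM in LD and 39.3, 44.7 and 84.8 CPM in VHD, so that VHD animal 3, the library that stood apart, was the 1 VHD library above LD. Log2 fold changes of VHD against LD at baseline were above 0 for 5 of 5 genes with that library and for 4 of 5 without it, where COL6A2 was at -0.49. COL6A2 (chromosome 3, 637046 to 659389) was at 21.98, 29.2 and 21.9 CPM in LD at baseline and 42.6, 9.83 and 11.6 CPM post-induction. In VHD it was at 21.6, 14.3 and 55.8 CPM and 20.4, 84.3 and 17.5 CPM. The highest VHD library at each time was the one that stood apart, and the groups overlapped. VHD against LD post-induction was 0.93 ± 0.69, turned to -0.18 without VHD animal 2 post-induction, and was 1.93 without LD animal 1 post-induction. COL6A3, the long chain of the same trimer, was at 13.2, 11.8 and 17.03 CPM and then 11.5, 26.4 and 21.6 CPM in LD, and at 9.94, 19.6 and 19.3 CPM and then 11.04, 22.5 and 36.6 CPM in VHD. Of the 6 animals 5 were higher post-induction, the groups overlapped, and the mean response was 0.51 ± 0.32 (adjusted p = 0.743, edgeR). COL6A1, the other chain (chromosome 3, 767396 to 788790), was lower in LD without overlap at both times. It was at 4.499, 4.997 and 3.31 CPM in LD and 5.69, 5.79 and 6.07 CPM in VHD at baseline, and at 4.98, 4.14 and 3.64 CPM and 5.24, 7.28 and 6.14 CPM post-induction. The gaps between the groups were narrow, and the differences were 0.46 ± 0.32 at baseline and 0.55 ± 0.31 post-induction (unadjusted p = 0.170 and 0.102, adjusted p = 1.000 and 0.999).

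The smallest unadjusted p-values among collagen genes belonged to COL13A1 and COL9A1. COL13A1 is a transmembrane collagen of cell contacts (chromosome 9, 62481979 to 62639841). It stood at 9.86, 12.5 and 15.4 CPM in LD at baseline and 12.7, 9.505 and 14.9 CPM post-induction, and at 11.5, 9.54 and 23.4 CPM and 28.7, 28.3 and 17.2 CPM in VHD. Post-induction the VHD libraries lay above the LD libraries, and 2 of the 3 VHD animals were higher than at baseline. VHD against LD post-induction was 1.00 ± 0.38, a 2.00-fold difference with an interval of 1.13 to 3.54 (unadjusted p = 0.021, adjusted p = 0.999, edgeR). Leaving out 1 library at a time gave 0.84 to 1.21. COL13A1, COL19A1 and COL6A1 were higher in VHD post-induction without overlap, 3 of 39 against 2.67% of all genes, and 0 were lower, against 2.16%. At baseline COL13A1 overlapped between LD and VHD, with a difference of 0.23 ± 0.38.

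COL9A1 is a fibril-associated chain best known from cartilage (chromosome 4, 68337058 to 68515348). It was at 3.98, 2.66 and 5.32 CPM in LD at baseline and 2.76, 3.56 and 5.46 CPM post-induction, with overlap. In VHD it was at 2.38, 4.43 and 2.63 CPM at baseline and 5.795, 11.3 and 5.41 CPM post-induction, without overlap and higher in each of the 3 animals. The VHD response was 1.25 ± 0.44, a 2.39-fold difference (unadjusted p = 0.013, adjusted p = 1.000, edgeR). It was 0.70 without the 2 libraries that stood apart and 0.82 without VHD animal 2 post-induction, the highest. The difference of the responses was 1.28 ± 0.62 (unadjusted p = 0.059, adjusted p = 1.000), with an interval from -0.06 to 2.63.

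No other fibril-associated, network-forming or transmembrane member was called. COL9A2, a partner chain of COL9A1 in type IX, was at 2.77, 15.4 and 8.41 CPM and 3.97, 7.24 and 6.04 CPM in LD, and at 26.7, 10.6 and 4.41 CPM and 22.9, 15.2 and 1.76 CPM in VHD. Within VHD animal 1 was highest and animal 3 lowest at both times, and the mean response was -0.36 ± 0.57. COL12A1, which decorates type I fibres, was at 13.3, 13.2 and 10.995 CPM and 8.37, 19.5 and 15.2 CPM in LD, and at 7.04, 11.9 and 17.8 CPM and 7.45, 5.31 and 21.1 CPM in VHD. Its mean response was 0.04 ± 0.36, with overlap between the groups throughout. COL8A1, a short-chain network collagen, was at 4.33, 4.62 and 7.26 CPM and 3.23, 5.88 and 7.57 CPM in LD, and at 1.14, 5.11 and 11.997 CPM and 2.07, 5.04 and 15.02 CPM in VHD. The VHD libraries spanned a wider range than the LD libraries, and the mean response was 0.15 ± 0.52. COL16A1, a fibril-associated chain, was at 3.11, 4.05 and 3.31 CPM in LD and 1.86, 2.03 and 2.41 CPM in VHD at baseline, the 1 collagen gene lower in VHD without overlap there, against 3.08% of all genes. The difference was -0.73 ± 0.41 (unadjusted p = 0.096, adjusted p = 1.000, edgeR). Post-induction it was at 2.49, 2.84 and 3.26 CPM in LD and 2.21, 5.202 and 2.17 CPM in VHD, which overlapped. COL17A1, the hemidesmosomal transmembrane collagen, was at 0.865, 1.08 and 1.15 CPM and 0.265, 2.39 and 1.63 CPM in LD, and at 0.621, 2.4004 and 1.63 CPM and 0.552, 1.15 and 1.53 CPM in VHD. Its VHD response was -0.49 ± 0.69 (adjusted p = 1.000, edgeR), with overlap between the groups. The 12 tested genes of these classes and type VI that the naming rule left out, COL6A1, COL19A1 and COL25A1 included, ranged from 0 to 7.28 CPM.

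For most collagen genes the data leave room for changes of 2-fold. In the mean response, which uses all 12 libraries, the 95% interval lay between a halving and a doubling for 13 of 39 genes. These were COL1A2, COL3A1, COL4A1, COL4A2, COL4A4, COL6A1, COL12A1, COL13A1, COL14A1, COL15A1, COL16A1, COL18A1 and COL19A1. The upper bound was under 2-fold for 14 genes and the lower bound above a halving for 35. For VHD against LD both bounds held for 1 gene at baseline and 2 genes post-induction. For the difference of the responses they held for 0 of 39. The median SE was 0.36 for the mean response and 0.73 for the difference of the responses.

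**Figure D4:**
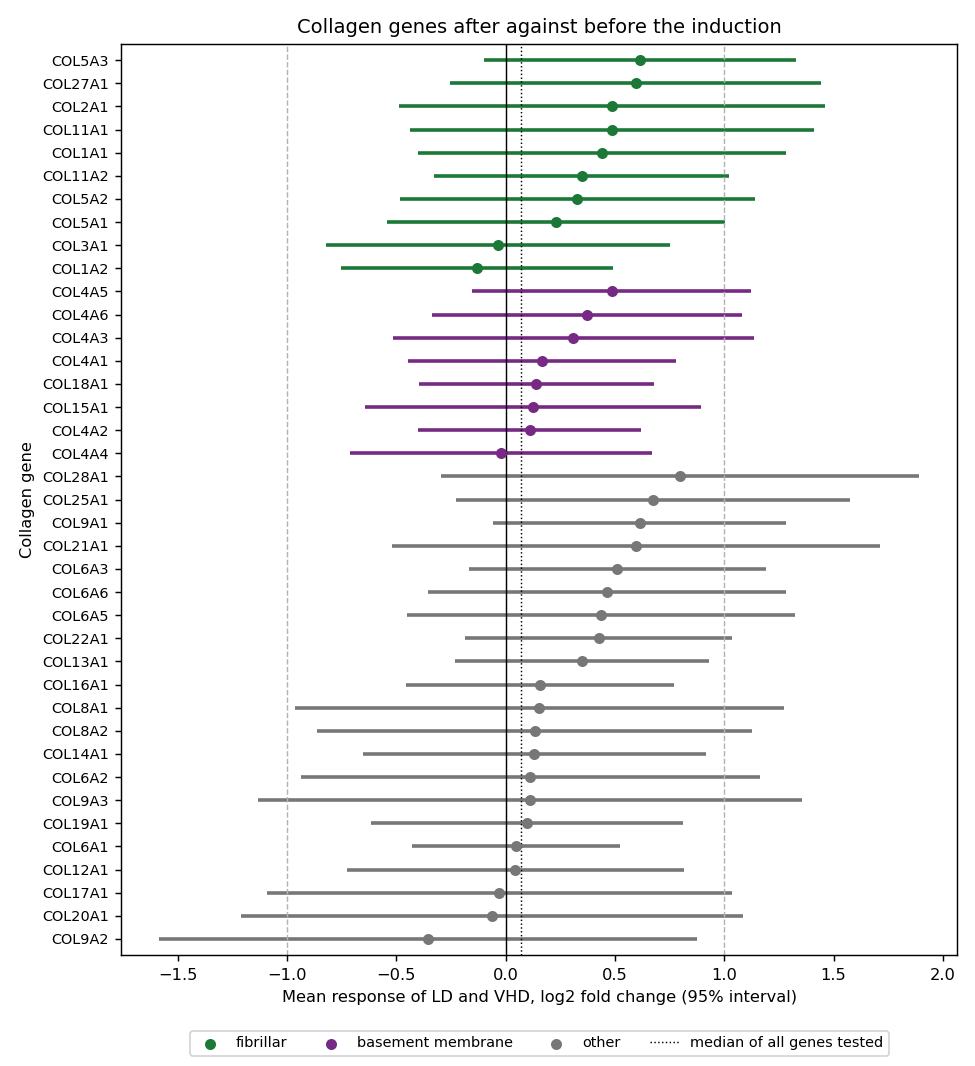
Mean response of LD and VHD (horizontal axis, log2 fold change of post-induction against baseline) for the 39 tested collagen genes by class; points are estimates, bars are 95% intervals, dashed lines mark a 2-fold change and the dotted line the median of all genes tested. All intervals include 0, and 33 of the 39 points lie above it.

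Collagen genes that lie side by side or share a trimer did not keep a fixed ratio of counts across libraries. COL4A1 over COL4A2 ran from 1.01 in VHD animal 2 post-induction to 2.80 in LD animal 3 post-induction. The head-to-head pairs COL4A3 and COL4A4, 638 bases apart, and COL4A5 and COL4A6, 617 bases apart, gave ratios of 0.60 to 4.00 and of 2.22 to 5.63. These rest on low counts, of 6 to 114 a library for COL4A3, 9 to 50 for COL4A4 and 13 to 91 for COL4A6. The part of count sampling in the spread of the ratios was not tested. COL1A2 over COL1A1, the chains of type I, ranged from 2.14 to 8.13, with the lowest in VHD animal 2 post-induction. COL3A1 over COL1A2 kept within 0.965 to 2.00, while COL3A1 over its neighbour COL5A2 ranged from 0.239 to 2.29. Among the type VI chains COL6A3 over COL6A2 ran from 0.267 to 2.68, COL6A2 over COL6A1 from 2.37 to 11.6 and COL6A3 over COL6A1 from 1.75 to 6.37. The highest ratio was 10.1-fold above the lowest for COL6A3 over COL6A2, 9.59-fold for COL3A1 over COL5A2 and 2.07-fold for COL3A1 over COL1A2. Chains were counted with no length correction, so a ratio is comparable between libraries and does not give the ratio of molecules.

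VHD animal 2 post-induction held the highest value of 10 of the 39 genes (25.6%), against 15.8% of all genes. VHD animal 3 post-induction held the highest of 8 (20.5%), against 7.89% of all genes, and VHD animal 1 at baseline held the lowest of 11 (28.2%), against 10.3%. COL6A2, COL11A2, COL27A1, COL4A3 and COL2A1 were above all other libraries in both libraries that stood apart, as 8.53% of all genes were. COL4A6 and COL5A3 were above all others in each of the 4 libraries with the most miRNA counts per 1000 transcript counts, as 4.80% of all genes were; these were LD animals 2 and 3 post-induction, VHD animal 2 at baseline and VHD animal 3 post-induction. The part of library composition in the collagen levels was not tested beyond leaving libraries out and a term for the first principal component, given below.

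The genes that modify, export, cross-link, break down and sense collagen were read from 7 lists. Of their 115 names reported here, 105 were in the table and 99 were tested. Called genes numbered 0 of 99 in each of the 6 comparisons with edgeR, and DESeq2 also called 0 in each. Unadjusted p-values under 0.05 in edgeR numbered 3 at baseline and 0 post-induction for VHD against LD, 3 and 0 for the LD and VHD responses, 4 for the mean response and 1 for the difference of the responses, where the shares of all genes were 1.86%, 2.44%, 5.7%, 3.44%, 7.91% and 1.3%. Log2 fold changes above 0 numbered 52 of 99 in the mean response, with a median of 0.02, against 57.4% of all genes and a median of 0.07.

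Of the hydroxylases and glycosyltransferases that modify the chains, 9 of 14 tested genes were above 0 in the mean response (median 0.04). P4HA1, a catalytic subunit of prolyl 4-hydroxylase, was at 16.1, 8.79 and 25.7 CPM in LD at baseline and 4.45, 5.69 and 7.86 CPM post-induction, and at 17.6, 34.5 and 4.04 CPM and 16.7, 1.15 and 4.02 CPM in VHD. It was lower in 6 of 6 animals and was not called (-1.45 ± 0.59, adjusted p = 0.543, edgeR). P4HA3 gave 0.49 ± 0.46. Of the chaperone and export genes, 5 of 9 were above 0. SERPINH1, the collagen-specific chaperone HSP47, was higher in 3 animals and lower in 3, with a mean response of 0.41 ± 0.29. MIA2 was lower in 5 of 6 animals (-0.23 ± 0.24). Among the propeptide and cross-linking enzymes 5 of 9 were above 0, and ADAMTS14, a procollagen N-proteinase, gave 1.22 ± 0.53 (adjusted p = 0.58, edgeR). TLL1 gave 0.94 ± 0.65. Of the breakdown genes and inhibitors 7 of 13, and of the collagen receptors 6 of 10, were above 0, with 0 called. MMP16 (0.59 ± 0.47), ITGA2 (0.78 ± 0.47) and ADGRG1 (0.81 ± 0.51) were each higher post-induction in 5 of 6 animals. MMP9 was lower in 5 of 6 (-0.44 ± 0.38). Among the fibrogenic signals 7 of 16 were above 0, and TGFBR2, a TGF-beta receptor, gave 0.95 ± 0.37. PDGFB, a growth factor for stellate cells, was higher post-induction in 5 of 6 animals and was not called (0.44 ± 0.26, adjusted p = 0.735, edgeR). Of the other matrix and basement membrane proteins 13 of 28 were above 0. LAMA2, a laminin chain, gave 1.36 ± 0.48 (adjusted p = 0.431, edgeR), and was higher post-induction in 4 animals and lower in 2. At baseline it was at 11.2, 9.05 and 12.6 CPM in LD and 8.39, 28.7 and 18.6 CPM in VHD. Post-induction it was at 8.53, 52.1 and 53.3 CPM in LD and 43.5, 9.75 and 52.9 CPM in VHD. The highest LAMA2 libraries were LD animals 2 and 3 post-induction, VHD animal 2 at baseline and VHD animals 1 and 3 post-induction. These are the libraries on 1 side of the first principal component of all genes, which held 31.4% of the variance. LAMA2 with a term for these sides is not given here. NID1, of the same list, was lower in 5 of 6 animals (-0.46 ± 0.24). LOX, LOXL2, LOXL4, CTSK, PRSS2, TIMP3, GP6, LAMA5, SPARC and SMAD7 were matched to no row and are not analysed here.

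Of the markers of cells that make collagen, 0 were called in the mean response. Of the stellate markers 5 of 11, of the portal fibroblast markers 4 of 11 and of the smooth muscle and myofibroblast markers 6 of 9 were above 0 in the mean response, with medians of -0.09, -0.04 and 0.18. Stellate marker sums were 111 to 127 CPM in LD at baseline, 88.8 to 135 CPM in LD post-induction, 97.3 to 135 CPM in VHD at baseline and 86.9 to 112 CPM in VHD post-induction. The 9 smooth muscle and myofibroblast markers had sums of 147, 168 and 113 CPM in LD at baseline and 197, 249 and 171 CPM post-induction, and sums of 156, 122 and 198 CPM and 245, 189.9 and 272 CPM in VHD. These sums were higher post-induction in 6 of 6 animals, without overlap in LD and with overlap in VHD. MYLK, the myosin light chain kinase, made up most of each sum and was itself higher in 6 of 6 animals (0.71 ± 0.26, adjusted p = 0.449, edgeR). Without MYLK, left out after its values were seen, the sum was higher in 2 of 6 animals. The sum of the 9 cholangiocyte markers was also higher in 6 of 6 animals, and those of the stellate and portal fibroblast markers in 1 of 6 each. Of the 9 cholangiocyte markers 7 were above 0 in the mean response. ANXA4 and EPCAM had the highest mean levels among them, at 37.5 and 29.1 CPM. Of the endothelial markers 6 of 15 and of the hepatocyte markers 2 of 9 were above 0 in the mean response, with medians of -0.04 and -0.10. The sum of each of these 2 lists was higher post-induction in 2 of 6 animals. DES, which stands in both the stellate and the smooth muscle lists, and HGF, a stellate cell gene, were lower post-induction in 6 of 6 animals without a call (-0.91 and -0.90, adjusted p = 0.441 and 0.481, edgeR). The part of cell composition in the collagen levels was not tested.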

How the data were processed

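Total RNA of 12 liver biopsies was sequenced as combined mRNA and miRNA libraries, per the labels' protocols. The authors deposited raw and normalized tables of transcripts and of mature miRNAs. The raw tables hold estimated counts per transcript or miRNA, deposited by the authors without scaling. The deposited normalized transcript signal equals the raw count times 1 constant per library, by a method not given in the sources used here. Partek, Bowtie and BWA and the build Mmul_8.0.1 are named in the submitters' processing notes, without roles or versions. Coordinates are those of the file and may be shifted by 1 base at the start, since its convention is not given. Whether counting used strand is not given in the sources used here.

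Transcript counts were summed per gene identifier and rounded, giving 23993 genes, and 18373 passed edgeR's filterByExpr by group. A quasi-likelihood model with 4 group means (edgeR 4.0.16, R 4.3.3, TMM factors, robust dispersion) gave 6 contrasts, called at an adjusted p of 0.05. SE is the log2 fold change divided by the square root of F. Group membership came from the titles, where a number names the same animal at both times. Within-animal correlations of the deviations from group means were -0.354 to 0.406. Scripts were tested on simulated data. DESeq2 1.42.0 and limma 3.58.1 (deposited signal plus 1 or 0.1, log2), other scaling factors and other filters were alternatives. So were a term for animals (for replicate numbers in VHD against LD), subsets of groups, and libraries left out. The genes named are the 14 tested members with the highest mean CPM, and in each comparison the member with the smallest unadjusted p in each direction, and of each pathway list the genes called and the 2 with the smallest p. The members and lists were chosen with earlier results of these data known. One gene of the pathway lists is not reported here.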

Additional observations from a re-analysis of the deposited data

How the results depend on the processing

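Collagen genes called numbered 0 in each of the 6 comparisons under each of the 24 alternatives, except that fitting only the compared groups covered 4 comparisons. No collagen call depended on a setting. A replicate block fitted a term for the animals named in the titles in the LD, VHD and mean responses and the difference of the responses. For VHD against LD it fitted a term for the replicate number instead, which joins different animals. The count was also 0 with this block, and it changed no call. Leaving out 1 library at a time gave 0 to 0 called genes. Of 2698 values of the 19 named genes under the alternatives, 224 (8.30%) had the opposite sign to the value reported, 102 moved by more than 1 SE, and 43 of 114 results kept their sign in every setting. Over the collagen genes tested under each alternative, the median mean response ran from 0.17 to 0.37. The genes tested changed with the filter. The medians over the same 39 genes, given above, reached a lower value without LD animal 1 at baseline. A term for the 2 sides of the first principal component (31.4% of the variance) was added after the data were seen. With it the mean response had a median of 0.25 and 26 of 39 genes above 0, against 33 without it. The LD response had 22 of 39 above 0, against 28, and the VHD response 28 of 39, against 34. On 1 side were LD animals 2 and 3 post-induction, VHD animal 2 at baseline and VHD animals 1 and 3 post-induction. For VHD against LD at baseline the median over the genes tested under each alternative ran from -0.08 to 0.39. With 3 libraries a group and 6 animals, depth limited the low members more than the high ones: COL23A1 and COL26A1 had at most 16 counts in any library and were not tested.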

Other observations

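COL11A1 and COL5A2, which were paired here after their values were seen, gave a ratio of counts between 0.635 and 1.33 over the 12 libraries, while the highest library lay 10.6-fold above the lowest for COL11A1 and 6.43-fold for COL5A2. Of the COL5A2 transcripts, the one that held 60.5% of the counts ranged from 0.154 to 69.5 CPM, while another ranged from 6.08 to 16.2 CPM. No test was made of either pattern.

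MicroRNAs of the miR-29 family, known to target collagen mRNAs, were counted in the same libraries. Of 427 miRNAs tested, none of the family was called in any comparison (edgeR). miR-29a-3p stood at 1574, 921 and 788 CPM in LD at baseline, 1189, 1560 and 795 CPM in LD post-induction, 1611, 1532 and 93.9 CPM in VHD at baseline and 1511, 468 and 1052 CPM in VHD post-induction. The lowest value was that of VHD animal 3 at baseline, 1 of the 2 libraries that stood apart. miR-29a-5p and miR-29b-2-5p did not pass the filter on low counts and were not tested. Mean responses of the 5 mature forms tested ran from -0.79 ± 0.47 for miR-29c-3p to 0.47 ± 0.43 for miR-29c-5p. The LD response of miR-29c-5p was 1.33 ± 0.63 and its VHD against LD difference at baseline 1.38 ± 0.63 (unadjusted p = 0.048 and 0.041, adjusted p = 0.986 and 0.999, edgeR). For miR-29b-1-5p VHD against LD post-induction was 1.67 ± 0.78 (unadjusted p = 0.045, adjusted p = 0.998, edgeR). No 3p form of the family had an unadjusted p under 0.05 in any comparison (edgeR). The share of all miRNAs under that value is not given here.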
